A study of Canis lupus familiaris with 13 samples.

Results

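Ribosome biogenesis genes encode the machinery that makes ribosomes in the nucleolus. The list holds 36 genes chosen by name: subunits of RNA polymerase I and its activator, proteins of the small nucleolar ribonucleoproteins (snoRNPs), processing and assembly factors of the small and the large subunit, and other nucleolar proteins. Of these, 35 were found by symbol, each under 1 gene identifier, among the 30951 genes of the table, and TSR1 was not analysed here. All 35 passed the filter on low counts, which left 14629 genes tested.

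RNA was measured in 13 libraries from biopsies of the biceps femoris, a thigh muscle, of 4 wild type dogs aged 9 to 10 months. The 3 basal libraries carry sample number 0 and came from dogs 2, 3 and 4. The 10 libraries labelled insulin carry sample numbers 1 (4 dogs), 2 (4 dogs) or 3 (dogs 1 and 2), and dog 1 had no basal library. The labels give neither the meaning of the sample numbers nor the dose, route or time of insulin, and they do not say whether the libraries of 1 dog came from separate biopsies, so p-values measure the spread between these libraries, which share 4 animals.

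Totals ranged from 45200416 to 81948641 counts per library, and the 35 genes together took 0.114% to 0.136% of them. The smallest count of any of them in any library was 114 reads. Summed skeletal muscle markers (9 genes) reached 226200 to 298000 CPM (read counts scaled to the TMM-adjusted size of the library) in basal and 237000 to 399200 in insulin libraries. The series text names mouse retina instead, but 4 retina markers summed to only 0.0183 to 0.231 CPM in the insulin libraries and to 0.0462 to 0.0885 CPM in the basal ones. Dog 1 sample 2 stood apart: ACTA1, the skeletal muscle actin, took 18.4% of its counts against 10.4% to 13.7% in the other 12 libraries, and its mean correlation with the other libraries across genes was 0.958 against 0.967 to 0.979. Several of the values below are also given without it.

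Ribosome production starts when RNA polymerase I transcribes the long precursor of the ribosomal RNAs. snoRNPs then guide chemical marks and cleavages on that precursor, and a succession of assembly factors, many of them helicases and GTPases, folds and trims it into the small and large subunits. In many tissues insulin and amino acids raise ribosome production through mTORC1 and MYC, and in muscle this capacity is studied for its part in growth. The values below are levels of messenger RNA and say nothing of the rate of ribosome production. Transcript lengths were not used here, so levels of different genes are not compared with each other.

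None of the 35 genes passed the test between insulin and basal libraries: 0 of 35 had an adjusted p under 0.05 in edgeR's quasi-likelihood test with dog as a block, where 20 of 14629 genes did (0.137%). DESeq2 also called 0 of 35, here and in each contrast between sample numbers. At an unadjusted p under 0.05, 1 of 35 passed (2.86%), against 603 of all genes tested (4.12%). The fitted log2 fold change was positive for 21 and negative for 14, with a median of 0.03 against -0.001 over all genes tested. Over all genes tested 7281 were positive and 7348 negative. The fold changes ran from -0.35 (HEATR1) to 0.56 (RRS1), and 33 of 35 lay within 0.3 of 0 on the log2 scale. Their standard errors ran from 0.14 to 0.38 with a median of 0.19. In every one of the 35 genes the basal and the insulin libraries overlapped. The share of all genes tested that overlapped was not computed, so this is not read as a trait of the list. In bulk muscle, fewer cells of a type and less RNA per cell cannot be told apart.

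**Figure D1:**
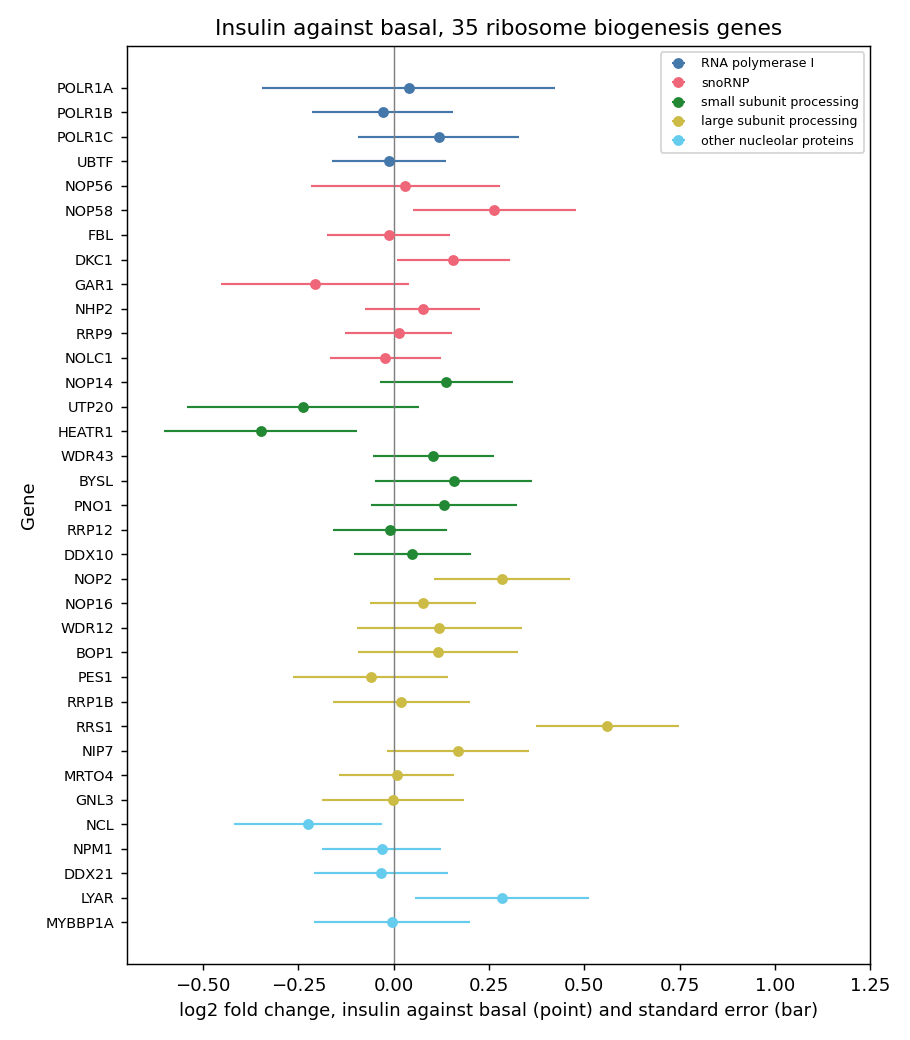
Log2 fold change of insulin against basal (x axis, edgeR with dog as a block) for each of the 35 genes (y axis), coloured by step, with bars of 1 standard error. RRS1 lies farthest right at 0.56 and HEATR1 farthest left at -0.35, and no gene passed the adjusted threshold.

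For RNA polymerase I, the 4 genes had a median log2 fold change of 0.01 between insulin and basal, with 2 positive and 2 negative. POLR1C, a subunit shared with RNA polymerase III, stood at 18.8, 20.3 and 26.7 CPM in the basal libraries of dogs 2, 3 and 4. In the 10 insulin libraries it ranged from 16.4 to 32.1 CPM (27.7 without dog 1 sample 2) with a median of 22.9. The basal values lay inside that range, and the log2 fold change was 0.12 ± 0.21 (SE), with an adjusted p of 1 in edgeR. POLR1B, the other large subunit of the catalytic core beside POLR1A, stood at 24.4, 32.5 and 39.7 CPM in basal libraries. Its insulin libraries spanned 17.5 (22.4 without dog 1 sample 2) to 35.5 CPM with a median of 28.3. The basal library of dog 4 was the highest of all 13, and the log2 fold change was -0.03 ± 0.19. POLR1A, the largest catalytic subunit, ran from 4.32 to 19.9 CPM, a 4.60-fold range that was 2.53-fold without dog 1 sample 2, and its log2 fold change was 0.04 ± 0.38. UBTF, the factor that binds ribosomal DNA and recruits the polymerase, gave -0.01 ± 0.15.

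Among the 8 snoRNP genes, 5 had positive and 3 negative fold changes, with a median of 0.02. NOP58, a core scaffold of the box C/D snoRNPs that guide ribose methylation, stood at 20.1, 16.2 and 20.2 CPM in the basal libraries of dogs 2, 3 and 4. Its insulin libraries ranged from 17.5 to 40.6 CPM (26.5 without dog 1 sample 2) with a median of 23.2. Of the 7 insulin libraries with a basal library of the same dog, 6 were above it. The log2 fold change was 0.26 ± 0.21, with an adjusted p of 1 in edgeR. DKC1, the pseudouridine synthase of the H/ACA snoRNPs, stood at 16.2, 18.8 and 24.0 CPM in basal libraries and at 16.5 to 26.1 CPM, median 20.4, in insulin libraries. It too was above the basal library of its dog in 6 of 7, by a log2 fold change of 0.16 ± 0.15. The other box C/D proteins, NOP56 at 0.03 ± 0.25 and the methyltransferase FBL at -0.01 ± 0.16, lay closer to 0. Of the other H/ACA proteins, GAR1 gave -0.21 ± 0.25 and NHP2 0.08 ± 0.15. RRP9, a protein of the snoRNP needed for the early cleavages, gave 0.01 ± 0.14 and NOLC1, a nucleolar chaperone of snoRNPs, -0.02 ± 0.15. RRP9 was the steadiest gene of the list, from 14.7 to 19.2 CPM over all 13 libraries.

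The 8 factors of small subunit processing had 5 positive and 3 negative fold changes, with a median of 0.08. HEATR1, a large protein of the small subunit processome that also supports transcription by RNA polymerase I, stood at 16.2, 8.35 and 12.2 CPM in the basal libraries of dogs 2, 3 and 4. Its insulin libraries ranged from 6.90 to 14.5 CPM with a median of 10.6. The basal library of dog 2 was the highest of all 13, but both insulin libraries of dog 3 were above its basal library, and the log2 fold change of -0.35 ± 0.25 had an adjusted p of 1 in edgeR. It was -0.11 without the basal library of dog 2 and -0.61 without dog 3. NOP14, which helps assemble the processome, stood at 74.4, 82.4 and 90.9 CPM in basal libraries and at 64.5 to 139.8 CPM, median 80.7, in insulin libraries. The high end came from dog 4, whose sample 1 and sample 2 stood at 139.8 and 105.5 CPM, and the log2 fold change was 0.14 ± 0.17. UTP20, another large processome protein, gave -0.24 ± 0.31. WDR43 of the processome gave 0.10 ± 0.16, the helicase DDX10 0.05 ± 0.15, and BYSL, which acts late in small subunit maturation, 0.16 ± 0.21. PNO1, an RNA-binding factor of late maturation, gave 0.13 ± 0.19, and RRP12, which takes part in export of the pre-ribosomes, -0.01 ± 0.15.

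For large subunit processing, 8 of the 10 fold changes were positive, with a median of 0.10. RRS1, an assembly factor that helps build the central protuberance of the large subunit, stood at 6.91, 7.79 and 9.84 CPM in the basal libraries of dogs 2, 3 and 4. In dog 2 the insulin libraries stood at 13.6, 11.5 and 11.9 CPM, in dog 3 at 9.35 and 10.8, in dog 4 at 13.4 and 13.6, and in dog 1, which had no basal library, at 11.01, 15.7 and 9.33. All 7 paired insulin libraries were thus above the basal library of their dog, while the groups overlapped because dog 4's basal library was above the lowest insulin libraries of dogs 1 and 3. Mean RRS1 was 8.18 ± 1.503 CPM (SD, n = 3 libraries of 3 dogs) in basal libraries. In insulin libraries it was 12.02 ± 2.04 CPM (SD, n = 10 libraries of 4 dogs, dog 1 included). The log2 fold change was 0.56 ± 0.19 (SE), with an unadjusted p of 0.0103 and an adjusted p of 0.757 in edgeR, so it was not called. NOP2, an rRNA cytosine methyltransferase, stood at 12.5, 16.7 and 18.4 CPM in basal and 14.3 to 23.1 CPM, median 19.3, in insulin libraries. It was above its dog's basal library in 6 of 7 and gave 0.28 ± 0.18, a value that dropped to 0.06 without dog 2, whose basal library was the lowest of the 13.

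The remaining large subunit factors lay close to 0. The PeBoW complex, which processes the large subunit rRNA precursors, has 3 subunits here: WDR12 gave 0.12 ± 0.22, BOP1 0.12 ± 0.21 and PES1 -0.06 ± 0.20. NIP7, a pre-ribosome binding protein, gave 0.17 ± 0.19, NOP16, an assembly factor, 0.08 ± 0.14, and RRP1B 0.02 ± 0.18. MRTO4, a relative of a stalk protein that holds its place during assembly, gave 0.01 ± 0.15 and GNL3, the GTPase nucleostemin, -0.001 ± 0.19.

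Of the 5 other nucleolar proteins, 1 had a positive fold change. LYAR, a zinc finger protein of the nucleolus, stood at 4.24, 4.89 and 5.38 CPM in the basal libraries of dogs 2, 3 and 4. In insulin libraries it ranged from 4.38 to 11.1 CPM (7.11 without dog 1 sample 2), median 6.09. It was above the basal library of its dog in 7 of 7, in dog 2 by as little as 4.38 against 4.24 CPM, and the log2 fold change was 0.28 ± 0.23 with an adjusted p of 1 in edgeR. NCL, nucleolin, a major nucleolar RNA-binding protein, stood at 131.6, 134.0 and 132.5 CPM in basal libraries, a spread of 1.21 CPM (SD, n = 3). Its insulin libraries ranged from 59.9 (92.65 without dog 1 sample 2) to 146.1 CPM with a median of 110.8. Of the 7 paired ones, 6 were below the basal library of their dog. The exception was sample 3 of dog 2, the highest of all 13, and the log2 fold change of -0.23 ± 0.19 had an adjusted p of 1 in edgeR. NPM1, a histone and ribosome chaperone with many processed copies in mammalian genomes that could share its reads, gave -0.03 ± 0.16, the helicase DDX21 -0.03 ± 0.18 and MYBBP1A, a repressor of rRNA synthesis, -0.003 ± 0.20.

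RRS1 and LYAR were the 2 of 35 genes above the basal library of the dog in all 7 paired insulin libraries, against 2.69% of all genes tested. No gene of the list was below it in all 7, against 3.44%. Averaging the insulin libraries of each dog, 8 of 35 (22.9%) were higher in 3 of 3 dogs, against 12.1% of all genes, and these were NOP58, DKC1, RRP9, BYSL, PNO1, RRS1, NIP7 and LYAR. GAR1 and NCL were lower in 3 of 3 dogs (5.71%, against 12.8% of all genes). Some of these differences were very small. For RRP9 the log2 differences in dogs 2, 3 and 4 were 0.007, 0.025 and 0.003, with 3 of 7 paired libraries above basal. For GAR1 they were -0.005, -0.04 and -0.56. The dogs did not share 1 direction over the list: 24 genes were higher with insulin in dog 2, 23 in dog 3 and 17 in dog 4, with medians of 0.08, 0.12 and -0.02 on the log2 scale against -0.01, 0 and 0.01 over all genes. Counts of shared direction were chosen after values were seen and are given as a description.

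**Figure D2:**
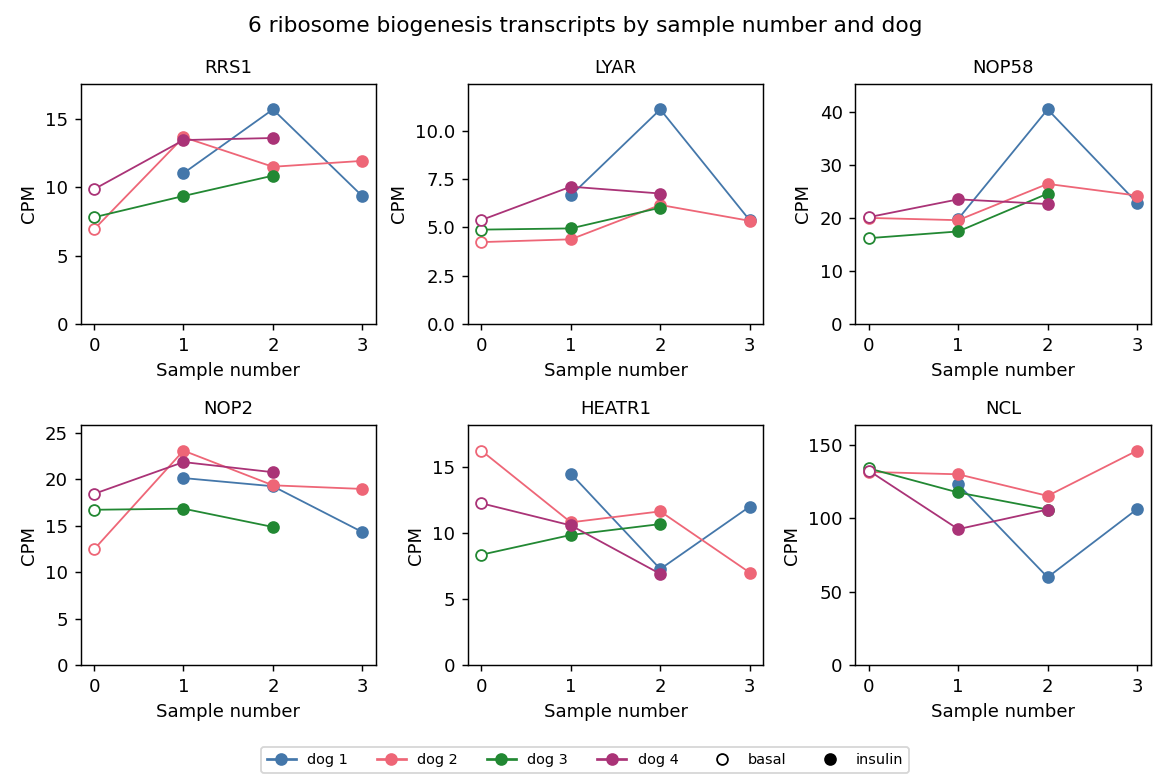
CPM (y axis, from 0) of RRS1, LYAR, NOP58, NOP2, HEATR1 and NCL by sample number (x axis), with 1 line per dog, open points for basal and filled points for insulin libraries. RRS1 is above its basal point in dogs 2, 3 and 4 at each later sample number, and dog 1 sample 2 holds the highest RRS1, LYAR and NOP58 and the lowest NCL.

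The sample numbers split the insulin libraries further, and the contrasts against sample 0 share its 3 basal libraries. For sample 1 against sample 0, 0 of 35 genes passed the adjusted threshold in edgeR, as did 0 of 14629 (0%). At an unadjusted p under 0.05, 1 did, RRS1, against 438 of all genes (2.99%). The median log2 fold change was 0.03 against -0.01 over all genes. RRS1 gave 0.52 in that contrast (unadjusted p = 0.0298 in edgeR) and NOP2 0.38 (unadjusted p = 0.0847). Without the basal library of dog 2 they gave 0.35 and 0.13, and without dog 2 altogether 0.29 and 0.12.

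For sample 2 against sample 0, 0 of 35 passed in edgeR, against 7 of 14629 (0.0479%), and at an unadjusted p under 0.05 there were 2, RRS1 and NOP58, against 724 of all genes (4.95%). The median was 0.10 against -0.02 over all genes, of which 7004 were positive and 7625 negative. All 10 large subunit factors had positive fold changes, from 0.005 (PES1) to 0.65. RRS1 gave 0.65 ± 0.21 (unadjusted p = 0.0109 in edgeR) and NOP58 0.52 ± 0.20 (unadjusted p = 0.0259). Without dog 1 sample 2 the median over the list was 0.05, 9 of the 10 large subunit factors were positive, RRS1 gave 0.54 and NOP58 0.39.

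For sample 2 against sample 1, which all 4 dogs have, 0 of 35 passed in edgeR and 0 of 14629 genes (0%). At an unadjusted p under 0.05 there were 3, NOP58, POLR1B and NHP2, against 495 of all genes (3.38%). NOP58 went from 19.9, 19.6, 17.5 and 23.6 CPM at sample 1 in dogs 1 to 4 to 40.6, 26.5, 24.6 and 22.7 at sample 2. It was higher in 3 of 4 dogs, with a log2 fold change of 0.49 ± 0.18, which became 0.28 without dog 1 sample 2. POLR1B went from 29.1, 33.8, 34.5 and 35.5 CPM to 17.5, 27.5, 29.5 and 27.0, lower in 4 of 4 dogs, with -0.41 ± 0.16 and -0.33 without that library. The adjusted p was 0.902 for both in edgeR. Without dog 1 sample 2 the unadjusted p in edgeR was 0.0821 for NOP58, 0.0558 for POLR1B and 0.0523 for NHP2 (log2 fold change 0.29). FBL, with a log2 fold change of 0.37, came to 0.0191 in that edgeR fit, against 0.1735 with all libraries, and was not called. The share of all genes under 0.05 in that fit was not computed. The median over the list was 0.06 with dog 1 sample 2 and -0.006 without it, against -0.02 over all genes with it. Between these samples endothelial markers had 5 of 5 negative fold changes (median -0.78) and satellite cell markers 3 of 3 (-0.35). Cycling cell markers had 3 of 3 negative (-0.49), red blood cell markers 3 of 3 (-0.27) and macrophage markers 3 of 4 (-0.34). The macrophage markers ran from -0.86 to 1.09. Cycling and red blood cell markers had very low counts, at most 44 and 137 reads in any library. Skeletal muscle markers had 6 of 9 negative (-0.05). Fibroblast markers had 4 of 5 positive (0.09) and neutrophil markers 3 of 4 (0.06). Lymphocyte markers had 2 positive and 2 negative (-0.03), and adipocyte markers 1 and 1 (0.07). These marker values include dog 1 sample 2, and 0 markers were called in edgeR. Their part in the values of the list was not tested.

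**Figure D3:**
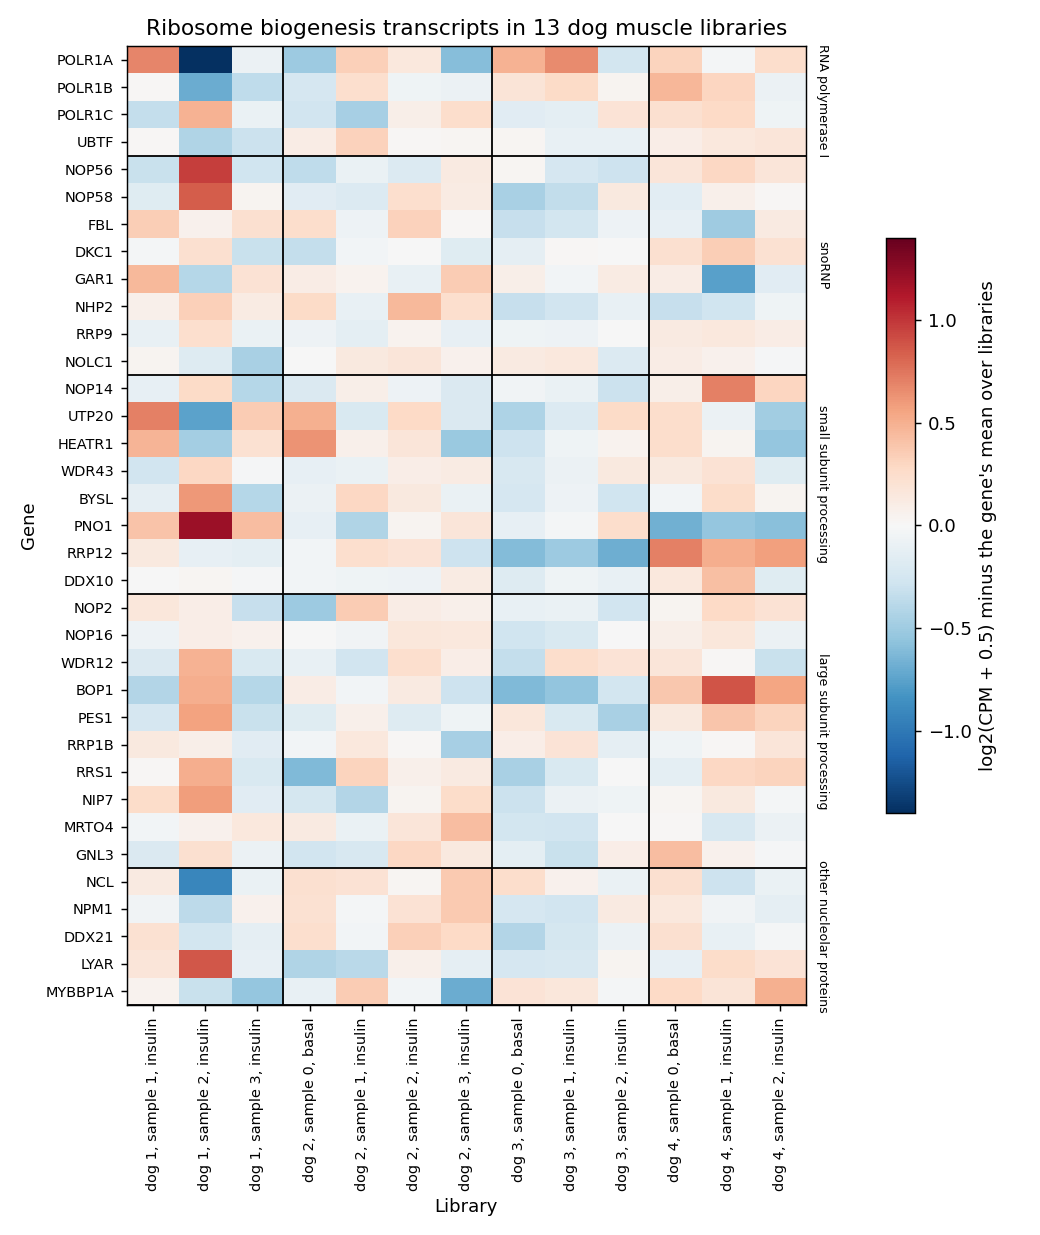
Heat map of the 35 genes (rows, by step) in the 13 libraries (columns, by dog), coloured by log2(CPM + 0.5) minus the mean of the gene over libraries. The column of dog 1 sample 2 holds the darkest cells, POLR1A low and NOP56 and PNO1 high, and RRP12 and PNO1 change between blocks of dogs.

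Dog 1 sample 2 differed from the other libraries in this list as well. It held the highest value of 12 genes and the lowest of 6 (51.4% of the list), while of all genes tested it held the highest for 19.4% and the lowest for 20.8%. Against the mean of samples 1 and 3 of dog 1 it was more than 0.5 log2 units higher for 12 genes and lower for 6, which is 51.4% against 40.3% of all genes. Genes of 1 step went both ways there. POLR1A stood at 4.32 CPM there and at 19.9 and 11.5 in samples 1 and 3, a log2 difference of -1.70, while POLR1C was higher by 0.70. UTP20, HEATR1, NCL and GAR1 differed by -1.29, -0.82, -0.93 and -0.73. NOP56 stood at 90.04 CPM against 36.8 and 37.7, a log2 difference of 1.26, while NOP58, BOP1, BYSL, LYAR and PES1 were higher by 0.91, 0.91, 0.87, 0.84 and 0.83. These genes were named after their values were seen, and this is 1 library with no repeat. It also had the lowest share of mitochondrial transcripts, 0.285% of counts against 0.497% to 1.49% elsewhere, and the part of ACTA1 or of RNA quality in these values was not tested.

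The spread of the list over libraries was set beside that of all genes. The SD of log2(CPM + 0.5) over the 13 libraries had a median of 0.27 over the 35 genes, from 0.12 (RRP9) to 0.58 (POLR1A). Without dog 1 sample 2 the median over the list was 0.23, RRP12 and BOP1 had 0.47 and 0.46, and POLR1A had 0.42. With all 13 libraries the median was 0.32 over all genes tested and 0.31 over the 6594 genes within the same range of mean level. Those medians stand beside the 0.27 of the list, and they were not computed without dog 1 sample 2. The median deviation of a library over the list ran from -0.18 (dog 3 sample 0) to 0.14 (dog 4 sample 1). No test was made of these spreads.

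Between the 4 dogs, 2 of 35 genes differed in edgeR, RRP12 and PNO1 (5.71%), against 614 of 14629 genes (4.2%), which is near the background. DESeq2 called 3, these and BOP1, but it also called more genes in all, 1456 against edgeR's 614. At an unadjusted p under 0.05 there were 4, with BOP1 and NHP2 as the other two, against 2522 of all genes (17.2%). RRP12 stood at 126.6, 106.9 and 105.3 CPM in dog 1, at 112.8, 136.3, 132.2 and 94.5 in dog 2, at 75.5, 81.2 and 71.9 in dog 3 and at 188.2, 165.1 and 172.7 in dog 4. Every library of dog 4 was above, and every library of dog 3 below, all those of the other dogs, and dogs 1 and 2 overlapped. The means were 113 ± 11.9, 119 ± 19.2, 76.2 ± 4.72 and 175 ± 11.8 CPM (SD over libraries of a dog), with an adjusted p of 0.00718 in edgeR. It passed in 15 of the 17 fits that each left out a library or a dog; without dog 3 the adjusted p was 0.199 and without dog 4 it was 0.220.

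PNO1 stood at 116.6, 202.4 and 119.4 CPM in dog 1, at 81.4, 65.7, 90.5 and 99.0 in dog 2, at 81.5, 86.5 and 104.5 in dog 3 and at 55.2, 60.5 and 58.8 in dog 4. Here dog 1 was highest and dog 4 lowest without overlap, and dogs 2 and 3 overlapped. The means were 146 ± 48.7, 84.2 ± 14.3, 90.8 ± 12.1 and 58.1 ± 2.68 CPM, with an adjusted p of 0.0263 in edgeR. It passed in only 7 of 17 fits that left out a library or a dog. The adjusted p was 0.0317 without dog 1 sample 2 and 0.0906, 0.0746, 0.0517 and 0.282 without dogs 1, 2, 3 and 4. It also missed the threshold without sample 0 or 2 of dog 2 (0.0561 and 0.0511), sample 1 of dog 3 (0.0608) or sample 0, 1 or 2 of dog 4 (0.0614, 0.110 and 0.104). BOP1 had an adjusted p of 0.0814 in edgeR and 0.0122 in DESeq2 with all libraries, and 0.00483 in edgeR without dog 1 sample 2, its means being 79.5, 80.6, 58.8 and 125 CPM. Its row is annotated as a pseudogene in the table, and it was named after its values were seen. The test compares these 4 animals, and markers differed between the dogs too: 2 of 9 skeletal muscle markers passed, MYH1 (2824 CPM in dog 1 and 19710 to 20450 in the others, adjusted p = 0.000364 in edgeR) and MYH2, and 1 of 4 macrophage and 1 of 4 neutrophil markers. Summed macrophage markers ranged over 19.5 to 31.0, 7.19 to 24.3, 9.24 to 46.4 and 10.7 to 25.8 CPM in dogs 1 to 4, and summed neutrophil markers over 22.5 to 63.7, 25.8 to 52.7, 24.8 to 72.8 and 23.6 to 38.5 CPM. Their part in the RRP12 and PNO1 values was not tested.

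**Figure D4:**
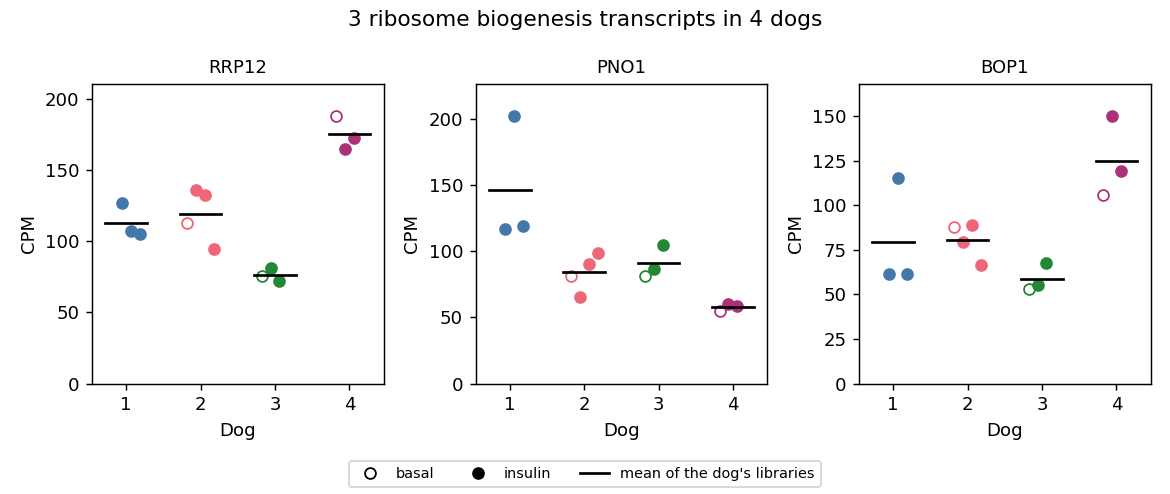
CPM (y axis, from 0) of RRP12, PNO1 and BOP1 in the libraries of each dog (x axis), with open points for basal and filled points for insulin libraries and a bar at the mean of the dog. Dog 4 has the highest RRP12 and the lowest PNO1, with no overlap with the other dogs.

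A wider list of 132 other ribosome biogenesis genes, of which 117 were tested, was read from the same fit. Between insulin and basal, 0 of 117 passed in edgeR and 0 in DESeq2. At an unadjusted p under 0.05 in edgeR there were 3 (2.56%, against 4.12% of all genes tested). Of the 117 fold changes 77 were positive and 40 negative, with a median of 0.05, against 7281, 7348 and -0.001 over all genes tested. For sample 2 against sample 1 the split was 91 to 26 with a median of 0.13, against 6959 to 7670 and -0.02 over all genes tested. The 13 genes of the RNA exosome, which trims and degrades RNA, had a median of 0.28. Without dog 1 sample 2 the split was 74 to 43 with a median of 0.06, and the exosome median was 0.08. The lowest unadjusted p between insulin and basal belonged to TAF1A and TAF1C, subunits of the factor that brings RNA polymerase I to its promoter, at -0.58 ± 0.22 and -0.56 ± 0.22, and to the helicase DDX55 at 0.45 ± 0.17. TAF1A averaged 6.82 ± 1.08 CPM in basal and 4.80 ± 0.895 in insulin libraries, and DDX55 averaged 9.75 ± 0.659 CPM in basal and ranged from 10.2 to 16.2 in insulin libraries, with adjusted p from 0.934 to 0.960 in edgeR for the 3. Between dogs, 2 of 117 passed in edgeR (1.71%, against 4.2% of all genes tested) and 4 in DESeq2, against 1456 over all genes. The 2 were RUVBL1, an ATPase of snoRNP assembly, at mean CPM of 13.3, 12.7, 20.3 and 25.7 in dogs 1 to 4 (adjusted p = 0.00837 in edgeR), and ZNHIT3, another snoRNP assembly factor, at 24.8, 20.0, 12.8 and 30.3 (adjusted p = 0.0315).

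Of 16 regulators of ribosome production, 0 passed between insulin and basal in edgeR and 0 in DESeq2. At an unadjusted p under 0.05 in edgeR there was 1 (6.25%, against 4.12% of all genes tested). There were 5 positive and 11 negative fold changes and a median of -0.08. MYC, the transcription factor that drives many biogenesis genes, stood at 40.0, 8.32 and 6.68 CPM in the basal libraries of dogs 2, 3 and 4 and at 5.70 to 11.1 CPM in insulin libraries. The basal library of dog 2 was the highest of all 13. The MYC log2 fold change of -0.98 ± 0.42 (adjusted p = 1 in edgeR) became 0.27 without that library. MXD4, a MYC antagonist, gave -0.41 ± 0.22, and MDM2, the p53 ligase that free ribosomal proteins bind, 0.29 ± 0.16. The genes of the ribosomal proteins themselves, 57 of 79 tested, had 0 called in edgeR, 0 in DESeq2 and 0 at an unadjusted p under 0.05 in edgeR. They had 8 positive and 49 negative fold changes and a median of -0.09, where the 35 biogenesis genes had 0.03. Many ribosomal protein genes have near-identical copies elsewhere in the genome, so their counts are uncertain, and the difference between the lists was not tested.

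Between insulin and basal libraries edgeR called none of the markers of other cell types, and DESeq2 called 1, of red blood cells. The lists went both ways. Neutrophil markers had 4 of 4 fold changes negative with a median of -1.26, red blood cell markers 3 of 3 with -1.94 and fibroblast markers 5 of 5 with -0.34. Macrophage markers had 3 of 4 negative with -0.37, lymphocyte markers 3 of 4 with -0.20 and satellite cell markers 2 of 3 with -0.30. Single markers ran from -0.54 to 2.84 for macrophages, -1.46 to 0.18 for lymphocytes and -0.86 to 0.80 for satellite cells. An unadjusted p under 0.05 in edgeR was reached by 3 of 4 neutrophil, 2 of 3 red blood cell and 2 of 3 satellite cell markers. Endothelial markers had 4 of 5 positive with a median of 0.17, cycling cell markers 3 of 3 with 0.16, and the 2 adipocyte markers 1 positive and 1 negative with 0.44. Levels were very low for cycling cell markers, which summed to 0.0924 to 0.767 CPM in basal and 0.198 to 0.768 in insulin libraries. Red blood cell markers summed to 1.225 to 3.67 CPM in basal and 0.329 to 1.885 in insulin libraries. Summed fibroblast markers ranged from 194.3 to 2015 CPM in basal, the highest in dog 3, and from 259.2 to 776.4 CPM in insulin libraries. Their part in the values of the biogenesis genes was not tested.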

How the data were processed

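The table was deposited by the authors and holds raw counts per gene and normalized values (a signal: counts divided by a size factor per library, deposited by the authors). Recomputed median-of-ratios size factors differed by at most 3.85e-09 (relative). Bowtie 0.12.2 and the CanFam3.1 genome are named, without roles, per the submitters' processing notes; the counter, annotation and strand setting are not given in the sources used here. Libraries were made with SMART-Seq v4 and Nextera XT, per the labels' protocols.

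Counts were tested in R 4.3.3 with edgeR 4.0.16 (quasi-likelihood, robust; filterByExpr; TMM), in models of dog plus stimulation and dog plus sample number, with Benjamini-Hochberg adjustment over 14629 genes and a threshold of 0.05. CPM are TMM-adjusted. Standard errors are the fold change divided by the square root of F. Only the edgeR test of insulin against basal was tried on simulated counts. These had no differences between dogs, and the changes put in were larger than any fitted for the list.

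Dog is a block because libraries of 1 animal are paired: deviations from group means had a median r of 0.19 for 15 pairs of libraries of the same dog and -0.07 for 47 pairs of different dogs. In the insulin against basal fit, dog 1, without a basal library, added only to the estimate of spread. No libraries of a group agreed within sampling noise (chi-square per gene at least 134).

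The members and lists were chosen with earlier results of these data known. Per-library values are given for the 2 members of lowest p in each of the 5 steps and each sample-number contrast, and for those called. From the wider list and the regulators, those called or the 3 of lowest p are named. Alternatives were DESeq2 1.42.0, its size factors in edgeR, no filter, no dog term, insulin libraries summed per dog, and each library and dog left out.

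In a RefSeq table of another assembly, used for names only, 9 of the 36 genes overlap another protein-coding gene (POLR1A, GAR1, NOP14, TSR1, NOP16, WDR12, BOP1, PES1 and MYBBP1A), and reads of the pair may not be told apart.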

Additional observations from a re-analysis of the deposited data

Results flagged for a closer look

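With 4 dogs in each of sample 1 and sample 2, each of the 35 genes was examined for a library far from the other 3, by Dixon's ratio of the gap to the whole range, taken on log2(CPM + 0.5). In 7 of 70 groups the ratio was above the 95% limit for 4 samples. The nominal rate of about 1 in 20 is for independent groups, and these groups share the same libraries. The share over all genes tested was not computed, so the count is not read as a trait of the list. The outlying library was dog 1 sample 2 in 3 of the 7. Of all genes tested, that library held the highest value for 19.4% and the lowest for 20.8%.

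At sample 1, dog 4 stood above the others in DKC1 (26.1 CPM, the next 20.8, ratio 0.8355) and in DDX10 (20.7 CPM, the next 15.3, ratio 0.8876). Dog 1 stood above them in UTP20 (12.5 CPM, the next 7.02, ratio 0.8594), and dog 3 below them in NPM1 (65.7 CPM, the next 76.6, ratio 0.8927). At sample 2, dog 1 stood below the others in POLR1B (17.5 CPM, the next 27.0, ratio 0.8313) and NCL (59.9 CPM, the next 106, ratio 0.8707), and above them in NIP7 (29.6 CPM, the next 20.2, ratio 0.8364). On the CPM scale the ratios were 0.853 for DKC1, 0.904 for DDX10, 0.895 for UTP20, 0.884 for NPM1, 0.832 for NCL and 0.865 for NIP7, and that for POLR1B, 0.794, was under the limit.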

How the results depend on the processing

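No alternative called a gene of the list in insulin against basal or in a sample-number contrast, and the lowest adjusted p was 0.233 (RRS1, without dog 1 sample 2). Between dogs the list had 3 called with DESeq2 and with no filter on low counts and 0 to 3 in fits that left out a library or a dog. With DESeq2, no filter and leave-outs, the calls over all genes were 104, 140 and 4 to 28 for insulin against basal, 40, 16 and 0 to 8 for sample 1 against 0, 73, 28 and 0 to 13 for sample 2 against 0, and 1456, 1831 and 236 to 814 between dogs. DESeq2's size factors in edgeR gave 4 for sample 1 against 0, and insulin libraries summed per dog gave 3 for insulin against basal. Without the replicate block the paired design was lost and the calls were 6 for insulin against basal and 0 for sample 2 against 0. The cause of these shifts was not tested.

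Of 770 fold changes of the 35 genes under alternatives, 692 kept their direction and 78 reversed, and 18 genes never reversed. Without the replicate block POLR1A gave -0.087 and FBL 0.088. With insulin libraries summed per dog UBTF gave 0.004, FBL 0.011, RRP12 0.005 and MYBBP1A 0.028. With DESeq2 and with its size factors, GNL3 gave 0.005 and MYBBP1A 0. Fits that left out a library or a dog ranged for POLR1A from -0.213 to 0.176, POLR1B -0.189 to 0.137, UBTF -0.051 to 0.051, NOP56 -0.117 to 0.196, FBL -0.111 to 0.062, RRP9 -0.008 to 0.025, NOLC1 -0.108 to 0.039, RRP12 -0.07 to 0.067, DDX10 -0.036 to 0.115, WDR12 -0.076 to 0.346, PES1 -0.186 to 0.167, RRP1B -0.046 to 0.08, MRTO4 -0.045 to 0.099, GNL3 -0.193 to 0.213, NPM1 -0.122 to 0.077, DDX21 -0.16 to 0.104 and MYBBP1A -0.096 to 0.072. Of the genes given by library that never reversed, the ranges were POLR1C 0.041 to 0.237, NOP58 0.185 to 0.313, DKC1 0.094 to 0.21, HEATR1 -0.614 to -0.112, NOP14 0.006 to 0.28, PNO1 0.086 to 0.186, RRS1 0.413 to 0.659, NOP2 0.062 to 0.473, LYAR 0.242 to 0.346 and NCL -0.34 to -0.125. The list's median for insulin against basal stayed between 0.009 and 0.077 in these fits. Alternatives for the medians and named genes in the sample-number contrasts, and for the calls over all genes, were chosen after seeing the data. Basal libraries came from only 3 dogs. Standard errors of 0.14 to 0.38, together with the adjustment over 14629 genes, limited the size of change that could be called.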
